A study of Mus musculus with 2 samples.

Results

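The genes examined come from enzyme families that add methyl groups to histone lysines (writers) or take them off (erasers). They were studied in mouse embryonic stem cells (ESCs). Members were taken by symbol from the deposited gene table: the Kmt, Setd, Ehmt, Nsd, Prdm and Smyd families were counted as writers and the Kdm family as erasers, and Kdm2b and Prdm14 were left out. The rule found 51 of the 24532 genes in the table, 35 writers and 16 erasers. No histone lysine was assigned here to 22 of the writers, among them Setd3, Setd6, Kmt2e, the Smyd genes and every Prdm gene but Prdm9. E14 is an established line of wild-type mouse ESCs. E14-Sox2TA/WT cells were cloned from it after CRISPR/Cas9 editing, with threonine 258 of Sox2 changed to alanine (T258A) on one allele and the other allele intact. Threonine 258 is a site of O-GlcNAc, a sugar attached to nuclear and cytoplasmic proteins. Both cell types were studied under self-renewal conditions with serum and LIF. The edited cells had been selected and kept with 2i, the combined Mek inhibitor PD0325901 and Gsk3 inhibitor CHIR99021, and was used after 2i had been withdrawn, so clone, culture history and genotype cannot be told apart. Each genotype had 1 library of polyadenylated RNA, so the differences below are those between 2 libraries, without a test.

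Lysine methylation marks chromatin according to the residue and to the number of methyl groups. Methylated lysine 4 of histone H3 (H3K4) accompanies promoters and enhancers, H3K36 the bodies of transcribed genes, and H3K9, H3K27 and H4K20 are mostly linked to silent or compacted chromatin. Writers use a SET domain, or the related PR domain in the Prdm proteins, whereas erasers use either a flavin cofactor (Kdm1) or an iron-dependent Jumonji domain (the other Kdm families). ESCs carry many promoters with both active and repressive marks, and the balance of these enzymes is studied for its part in pluripotency and lineage choice.

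The libraries held 60263536 counted reads in E14 and 44609228 in E14-Sox2TA/WT cells. Sox2, the edited gene, had a TPM (a level scaled for transcript length and library size) of 372.5 in E14 and 274.2 in E14-Sox2TA/WT cells (28936 and 14270 reads, log2 ratio -0.44), and the table cannot show the edit itself. The ESC markers Pou5f1, Nanog, Zfp42, Esrrb, Dppa5a and Tdgf1 were all expressed, with a summed TPM of 11308 in E14 and 8292 in E14-Sox2TA/WT cells. Dppa5a made up 6877 and 4429 of these sums. The log2 ratios differed by gene: Nanog -1.07, Dppa5a -0.63, Tdgf1 -0.34, Zfp42 -0.23, Pou5f1 0.03 and Esrrb 0.10. The fibroblast list of 8 genes was low (summed TPM 46.1 and 17.7, most of it Thy1), with Dcn, Lum and Postn at 0 reads in both libraries. Thy1 (TPM 40.1 and 11.4) and Fbln2 (3.04 and 1.04) were lower in E14-Sox2TA/WT cells. The collagen genes Col3a1 (0.080 and 1.28), Col1a2 (0.26 and 0.98) and Col1a1 (2.66 and 2.95) were higher. Markers of formative epiblast summed to 83.9 and 229, those of primitive endoderm to 109 and 63.8, those of germ cells to 398 and 93.3 and those of muscle to 3.67 and 3.37. Their part in the values below was not tested, and in bulk RNA fewer cells of a type and less RNA per cell cannot be told apart.

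Levels of the members spanned a wide range. The filter used here, a TPM of 10 or more in either library, was passed by 39 members, 25 writers and 14 erasers. By mean TPM over both libraries, the most abundant writers were Kmt5a, which places a single methyl group on H4K20, with a TPM of 119 in E14 and 134 in E14-Sox2TA/WT cells, followed by Smyd5 (108 and 107) and Setd6 (107 and 97.7), known for methylating a subunit of NF-kB. These 3 genes made up 35.3% of the summed TPM of the writers in E14 and 29.2% in E14-Sox2TA/WT cells. By the same mean the most abundant erasers were Kdm1a, the flavin-dependent H3K4 demethylase also called Lsd1 (186 and 228), Kdm5b, a Jumonji H3K4 demethylase (122 and 137), and Kdm4a, which acts on H3K9 and H3K36 (66.1 and 51.6). In E14-Sox2TA/WT cells alone, Setd5 exceeded Setd6, and Kdm4c and Kdm3a exceeded Kdm4a. Kdm1a, Kdm5b and Kdm4a together accounted for 59.4% and 54.7% of the eraser sum. The classical promoter and enhancer methyltransferases of H3K4 were far less abundant per transcript, with TPM values in E14 between 5.01 (Setd1b) and 41.1 (Setd1a).

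**Figure D1:**
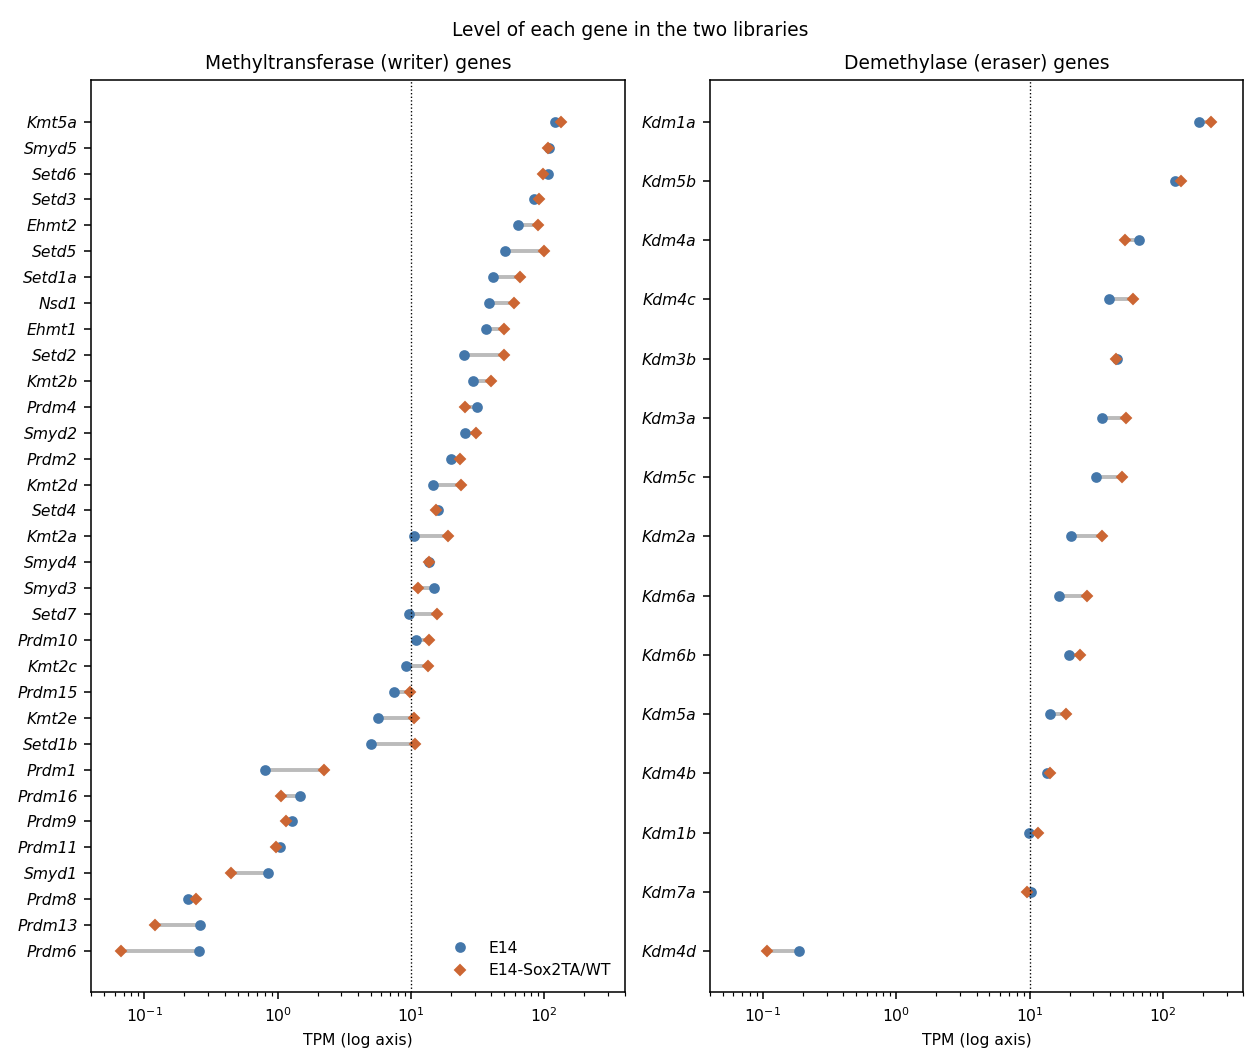
TPM of each member on a log axis in E14 (circles) and E14-Sox2TA/WT cells (diamonds), writers on the left and erasers on the right, ordered by mean level; the dotted line is a TPM of 10. Most members above the line lie further right in E14-Sox2TA/WT cells, and the 3 highest writers and Kdm5b differ little. Kdm5d and Prdm12, with a TPM of 0 in at least 1 library, are not drawn.

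The remaining 12 members stayed under the filter. They were Kdm4d, Kdm5d, Smyd1, a muscle gene, and the 9 Prdm genes Prdm1, Prdm6, Prdm8, Prdm9, Prdm11, Prdm12, Prdm13, Prdm15 and Prdm16, most of which are known for roles in differentiated tissues or germ cells. Prdm15, a zinc finger regulator of pluripotent cells, came closest to the filter (TPM 7.46 and 9.91, log2 ratio 0.41). Prdm1, which encodes the germ cell and lineage repressor Blimp1, was the only gene among the 12 that was more than 2-fold higher with a TPM of at least 1 in either library. It had 132 reads in E14 and 244 in E14-Sox2TA/WT cells, a TPM of 0.800 and 2.21, and a log2 ratio of 1.47 (95% counting interval 1.16 to 1.78). The germ cell and primitive endoderm markers, 2 settings in which Prdm1 is known to act, were lower in sum in the same library (log2 ratios of the sums -2.09 and -0.77). The sum of the formative epiblast markers was higher (1.45), and a link of any of these lists to Prdm1 was not tested. Prdm9, the meiotic H3K4 methyltransferase, had 139 and 85 reads, a number too small to separate the libraries (log2 ratio -0.14, interval -0.55 to 0.25). Prdm12 had 2 reads and 0 reads, at or under the floor of 3 reads, and no fold is given. Of the other low genes, Prdm6 (22 and 4 reads), Prdm16 (398 and 193) and Smyd1 (90 and 32) had intervals below 0, and those of Kdm4d, Prdm8, Prdm11 and Prdm13 included 0.

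Expression of the 39 members past the filter was then compared between genotypes as the log2 ratio of TPM, E14-Sox2TA/WT over E14. Only Setd1b was more than 2-fold higher and no member was more than 2-fold lower, where 4.17% of all 9094 genes past the filter were higher and 4.07% were lower by that measure. At a threshold of 1.5-fold, of the 39 members 14 (35.9%) were higher and 0 were lower, against 14.2% and 10.5% of all genes, and with the length trend removed 0 were higher and 3 lower. Writers and erasers contributed in like proportion, with 9 of 25 writers and 5 of 14 erasers. The counting interval, which covers the sampling of reads alone, lay above 0 for 28 members and below 0 for 6, with 50.2% and 35.3% of all genes as the background. The median log2 ratio was 0.35 over the members, against 0.08 over all genes past the filter.

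**Figure D2:**
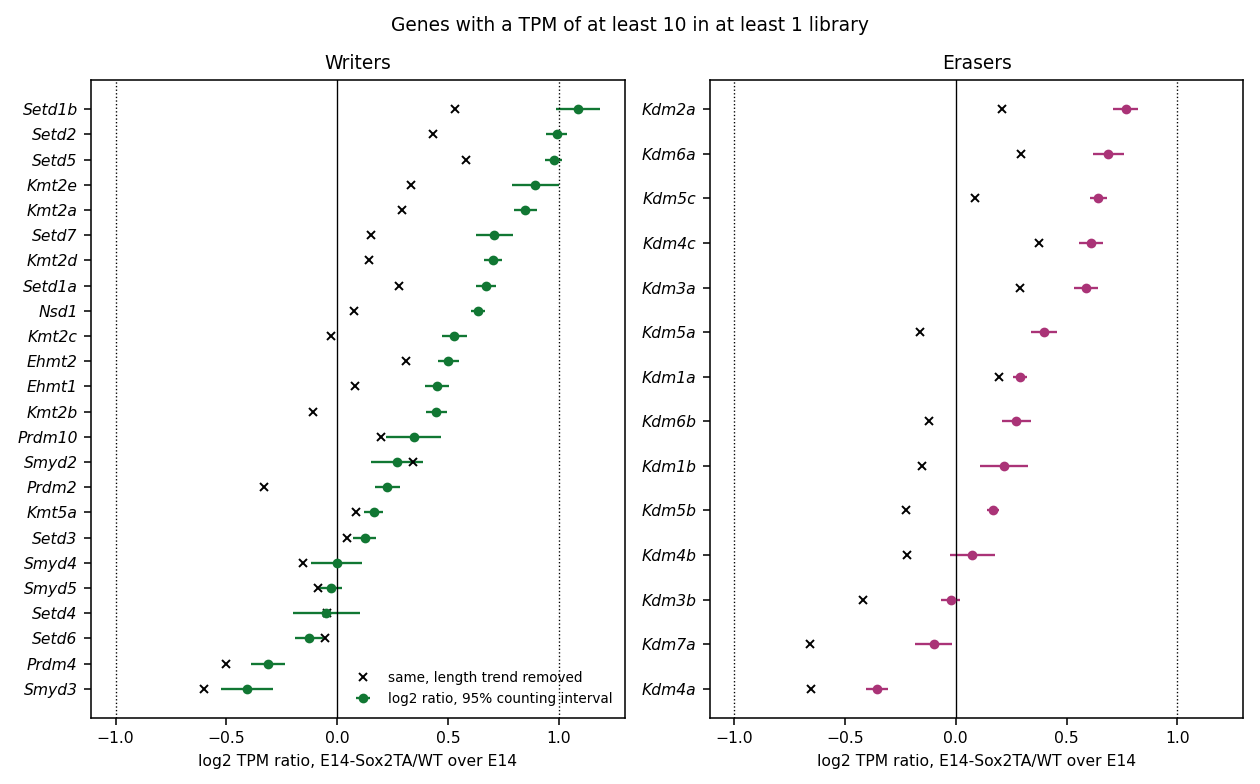
Log2 TPM ratio of writers and erasers past the filter (circles) with the 95% counting interval (bars), and the ratio after the trend on transcript length was removed (crosses); dotted lines mark 2-fold. Setd1b, Setd2 and Setd5 sit at the 2-fold line, no gene is near the lower line, and the crosses of most genes with a high ratio lie closer to 0 than their circles.

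All 7 writers past the filter to which H3K4 was assigned here were higher in E14-Sox2TA/WT cells. With the length trend removed, 5 of these 7 stayed above 0. Of all genes past the filter 5214 of 9094 were higher, and these 7 writers all belong to the long genes described further on. The 13 writers past the filter without an assigned lysine are not in this count: 6 were higher and 7 lower, Smyd3 among the latter. Setd1a and Setd1b are the catalytic subunits of the Set1 complexes, which trimethylate H3K4 at active promoters. Setd1b (chromosome 5, 123142040 to 123168630 in GRCm38.p6) had 1398 reads in E14 and 1992 in E14-Sox2TA/WT cells, a TPM of 5.01 and 10.7 and a log2 ratio of 1.09. Its interval of 0.99 to 1.19 reaches below the 2-fold line, so this depth does not place it above 2-fold. Setd1a went from a TPM of 41.1 (7677 reads) to 65.5 (8201 reads), a log2 ratio of 0.67 (0.63 to 0.72), and thus supplied 89.1% of the Setd1 transcripts in E14 and 86.0% in E14-Sox2TA/WT cells.

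The Kmt2 genes encode the Mll enzymes, of which Kmt2a and Kmt2b work at promoters of developmental genes and Kmt2c and Kmt2d at enhancers. All 5 were higher, though Kmt2b and Kmt2c turned to -0.11 and -0.03 with the length trend removed. Kmt2a had a TPM of 10.5 and 18.9 (5437 and 6567 reads, log2 ratio 0.85, 0.80 to 0.90), and Kmt2d had 14.7 and 23.9 (9159 and 9988 reads, 0.70, 0.66 to 0.74). Kmt2c (9.24 and 13.3, log2 ratio 0.53) and Kmt2b (29.1 and 39.8, 0.45) differed less, and the order by TPM was the same in both libraries (Kmt2b, Kmt2d, Kmt2a, Kmt2c and Kmt2e). Kmt2e, whose SET domain has no established histone substrate, had 1304 and 1622 reads, a TPM of 5.70 and 10.6 and a log2 ratio of 0.89 (0.79 to 0.999). Setd7, which places a single methyl group on H3K4 in vitro and modifies many other proteins, had a TPM of 9.65 and 15.8 (2236 and 2451 reads, log2 ratio 0.71, 0.63 to 0.79).

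Both members assigned here as writers of H3K36, Setd2 and Nsd1, showed the same direction. Setd2, the enzyme that trimethylates H3K36 along transcribed genes, had 6586 reads in E14 and 8769 in E14-Sox2TA/WT cells, a TPM of 25.04 and 49.76, and a log2 ratio of 0.99 (0.94 to 1.04). Nsd1, which dimethylates the same residue, had a TPM of 38.4 and 59.6 (log2 ratio 0.64, 0.60 to 0.67, or 0.08 with the length trend removed). Setd5, a SET domain protein whose own enzymatic activity is debated, on chromosome 6 (113077262 to 113153432), was close to Setd2 in its difference, with 10256 and 13524 reads, a TPM of 50.3 and 99.0 and a log2 ratio of 0.98 (0.94 to 1.01). The intervals of Setd1b, Setd2 and Setd5 overlapped, so their order is not resolved, and of all genes past the filter 304, 388 and 406, respectively, had a higher ratio.

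Of the members past the filter assigned here as writers of H3K9 or H4K20, Ehmt1 and Ehmt2 were higher as well, and Kmt5a was near level. Writers of these marks outside the rule were mixed. Setdb1 was level (log2 ratio -0.02) and Suv420h2 lower (-0.87). Suv39h1 (0.43), Suv39h2 (0.51), Setdb2 (0.27) and Suv420h1 (0.30) were higher. Ehmt1 and Ehmt2 encode GLP and G9a, which act as a dimer on H3K9, and both were higher, at a TPM of 36.4 and 49.8 for Ehmt1 (log2 ratio 0.45) and 63.2 and 89.5 for Ehmt2 (0.50). Their ratio to each other was nearly the same in both libraries, with Ehmt2 at 63.4% and 64.2% of the sum. Kmt5a was near level (10097 and 7678 reads, log2 ratio 0.16, 0.12 to 0.21). Setd3, known as the histidine methyltransferase of actin (83.6 and 91.1, log2 ratio 0.12, or -0.02 with FPKM), Setd4 (15.8 and 15.3, 910 and 590 reads, -0.05, -0.20 to 0.10) and Setd6 (5605 and 3440 reads, -0.13, -0.19 to -0.07) were near level as well, and the signs of Setd4 and Setd6 turned to 0.08 and 0.06 with trends on GC content and length removed.

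Of the 4 Smyd genes past the filter, 1 was higher and 3 were lower or level, and of the 4 Prdm genes 2 were higher and 2 lower. Smyd2, which methylates p53 among other substrates, was higher (25.4 and 30.7, log2 ratio 0.27), Smyd4 (13.6 in both libraries, 1509 and 1010 reads) and Smyd5 (8518 and 5604 reads, -0.03, or 0.0036 with GC and length trends removed) had intervals that included 0, and Smyd3, a cytoplasmic and nuclear enzyme of Ras signaling, was lower (14.9 and 11.2, 1764 and 891 reads, -0.41, -0.53 to -0.29). Prdm4, a zinc finger protein, was lower (31.5 and 25.4, 3894 and 2076 reads, -0.31, -0.39 to -0.23), whereas Prdm10 (10.8 and 13.7, 0.35) and Prdm2 (19.8 and 23.2, 0.23, or -0.33 with the length trend removed) were higher. The median log2 ratio of the 25 writers was 0.45, and it was 0.08 with the length trend removed. Over the 13 of them without an assigned histone lysine it was -0.002, or -0.06 with the length trend removed.

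Among the erasers, 11 of 14 past the filter had a higher TPM in E14-Sox2TA/WT cells and 3 a lower one, with a median log2 ratio of 0.28, beside 5214 of 9094 genes and a median of 0.08. With the length trend removed 6 were higher and 8 lower. The H3K4 erasers were all higher but by modest amounts where they were abundant. Kdm1a had 17887 and 14650 reads (log2 ratio 0.29, 0.26 to 0.32) and Kdm5b 24277 and 18273 reads (0.17, 0.14 to 0.20). Kdm5a (14.2 and 18.8, log2 ratio 0.40) and the minor flavin enzyme Kdm1b (9.89 and 11.5, 0.22) lay in the same range. The signs of Kdm5a, Kdm5b and Kdm1b turned negative with the length trend removed (-0.16, -0.23 and -0.15).

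Kdm5c and Kdm6a lie on chromosome X, and Kdm6a (Utx) is the H3K27 demethylase that works together with the Kmt2c and Kmt2d complexes. Kdm5c had a TPM of 31.7 and 49.5 (10984 and 11496 reads, log2 ratio 0.64, 0.61 to 0.68). Kdm6a had 16.7 and 26.9 (3111 and 3359 reads, 0.69, 0.62 to 0.76). Both were above the median of the 291 genes of chromosome X past the filter, which was 0.18. With the length trend removed that median was 0.09, Kdm5c was level with it at 0.09, and Kdm6a stood at 0.30. Their Y-linked counterparts had no reads: Kdm5d, a member, and Uty were at 0 in both libraries, as were all 49 genes of chromosome Y in the table. Whether the cells or the counting left chromosome Y without reads cannot be told apart. The floor of 3 reads stands at 0.0498 CPM in E14, where CPM scales reads by library size, and 0.0673 CPM in E14-Sox2TA/WT cells.

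Within 3 eraser families the leading gene changed. In the Kdm4 family, whose products remove methyl groups from H3K9 and H3K36, Kdm4a went from 9572 to 4905 reads (TPM 66.1 and 51.6, log2 ratio -0.36, -0.41 to -0.31) and Kdm4c from 5276 to 5393 (39.35 and 60.03, 0.61, 0.55 to 0.66). Kdm4a thus made up 55.5% of the family's TPM in E14 and 41.0% in E14-Sox2TA/WT cells, while Kdm4c made up 33.0% and 47.7%, and the summed TPM of the family was nearly the same (119 and 126). Kdm4b was near level (13.5 and 14.2, log2 ratio 0.08, -0.02 to 0.18), and its sign turned with FPKM, with centring and with the trends removed.

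The Kdm3 genes, which act on H3K9, and the Kdm6 genes, which act on H3K27, also changed their leading gene, although in neither was the new leader paired with a clearly lower partner. Kdm3a had a TPM of 34.9 and 52.4 (log2 ratio 0.59, 0.53 to 0.64) and Kdm3b 45.2 and 44.5 (10127 and 6676 reads, -0.02, -0.07 to 0.02), so that the share of Kdm3a in their sum was 43.6% in E14 and 54.1% in E14-Sox2TA/WT cells. Kdm6b, the inducible H3K27 demethylase Jmjd3, had 19.6 and 23.7 (0.27, 0.21 to 0.34), and the share of Kdm6a beside it was 46.0% and 53.1%. The intervals of the paired genes did not overlap in any of the 3 families. The differences kept their order with the length trend removed, with log2 ratios of 0.38 and -0.65 for Kdm4c and Kdm4a, 0.29 and -0.42 for Kdm3a and Kdm3b, and 0.30 and -0.12 for Kdm6a and Kdm6b. With a GC trend removed as well, the Kdm6 genes lay closer together (0.21 and 0.11), a gap smaller than the lead of Kdm6b in E14. Of the erasers with no such partner, Kdm2a, an H3K36 demethylase that binds CpG islands, had the highest ratio of the class as deposited (20.4 and 34.7, 4666 and 5321 reads, 0.77, 0.71 to 0.82). Kdm2a stood at 0.21 with the length trend removed, below Kdm4c, Kdm6a and Kdm3a. Kdm7a, which acts on H3K9 and H3K27, was slightly lower as deposited (10.2 and 9.54, 3074 and 1924 reads, -0.10, -0.18 to -0.02). Its log2 ratio was -0.66 with the length trend removed and -0.86 with GC and length trends removed.

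Many members have long transcripts, and the ratio of all genes moved with transcript length. The length implied by reads and FPKM had a median of 6015 bases over the members past the filter and 2714 bases over all genes past it. The median log2 ratio of all genes was -0.16 in the shortest of 20 length bins (median length 559 bases) and 0.56 in the longest (median 8680 bases), and 14 of the 39 members fell in the longest bin. That bin spans 7230 to 24585 bases, and trend removal subtracts a single median there, so any trend within it remains. Across the members, Spearman's rho between length and log2 ratio was 0.60 (n = 39). It was 0.71 for writers (n = 25), 0.15 for erasers (n = 14) and 0.39 for all genes (n = 9092), all taken from the same 2 libraries. Library fragmentation and RNA quality were not measured, and their part in the trend was not tested.

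With an implied length of at least 5000 bases, 13 of 13 writers and 7 of 9 erasers were higher, beside 1171 of all 1380 genes of that length, and 12 of these 22 members (54.5%) passed 1.5-fold, against 32.9% of all genes of that length. Under 5000 bases, 5 of 12 writers and 4 of 5 erasers were higher, beside 4043 of all 7714 genes, and 2 of 17 members (11.8%), Kdm3a and Kdm4c, passed 1.5-fold, against 10.9% of all genes of that length. After the length trend was removed, 0 members were more than 1.5-fold higher, against 8.81% of all genes, and 3 (Kdm4a, Kdm7a and Smyd3) were more than 1.5-fold lower, against 11.6%. The highest members were then Setd5 (0.58), Setd1b (0.53) and Setd2 (0.43). With a trend on GC content removed as well, Setd1b (0.73) and Setd5 (0.68) were more than 1.5-fold higher, and Setd2 stood at 0.38. Kdm7a (-0.86) and Smyd3 (-0.61) were then more than 1.5-fold lower. The share of all genes past 1.5-fold was not computed for this setting. The median over all members was 0.08 with the length trend removed, and 21 of the 39 members were then above 0.

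**Figure D3:**
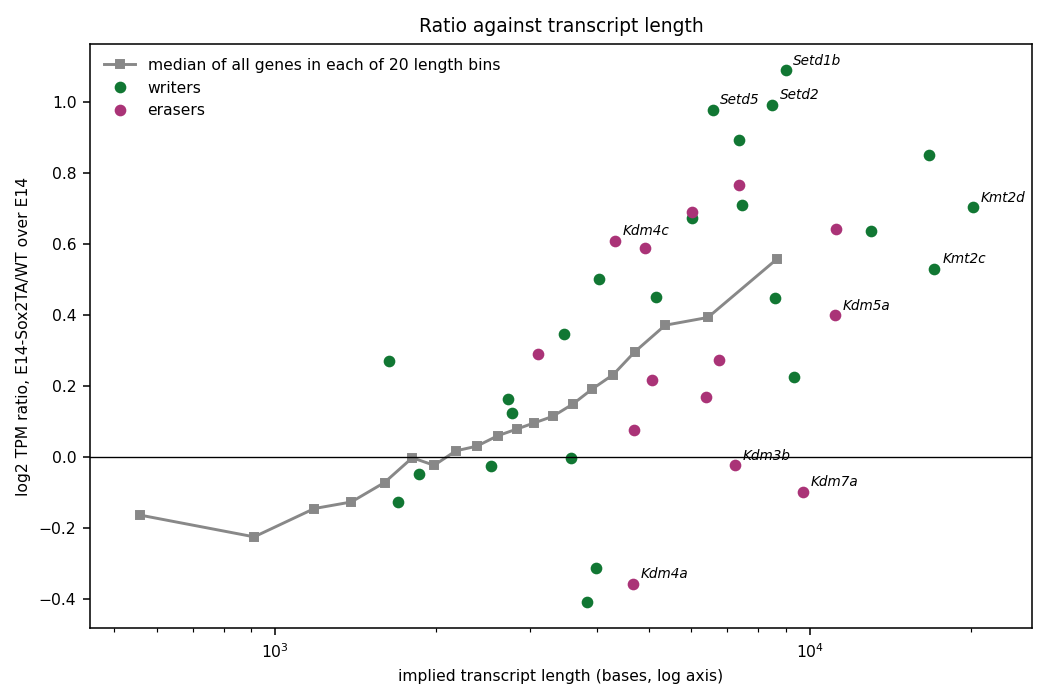
Log2 TPM ratio of writers and erasers past the filter against the implied transcript length (log axis), with the median ratio of all genes past the filter in each of 20 length bins (grey squares). The grey line starts at -0.16, is lowest at -0.22 in bin 2 and ends at 0.56, at 8680 bases. Of the 13 writers of at least 5000 bases, 10 lie above the median of their bin. Several erasers, Kdm3b, Kdm4a and Kdm7a among them, lie below that of theirs.

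Writers and erasers as classes were then set against each other. The median log2 ratio of erasers was 0.17 below that of writers (a difference of -0.17), and this order did not hold at a filter of TPM 20, where the difference was 0.08. The summed TPM of the 35 writers was 948 in E14 and 1158 in E14-Sox2TA/WT cells, and that of the 16 erasers was 631 and 763. Among the members, the ratio of erasers to writers was therefore nearly the same, 0.665 in E14 and 0.659 in E14-Sox2TA/WT cells. Of the writer sum, 545 and 586 came from the 22 writers without an assigned histone lysine. Genes outside the rule, described below, are not in this ratio: further writers summed to 539 and 541 and further erasers to 74.9 and 137. For H3K4 alone the ratio differed more: the 8 writers summed to 121 and 189 and the 6 erasers to 365 and 445, and erasers exceeded writers 3.02-fold in E14 and 2.35-fold in E14-Sox2TA/WT cells. The median ratio of the H3K4 writers past the filter was 0.70 and that of the H3K4 erasers 0.29. With the length trend removed these medians were 0.15 and -0.15. For H3K9 the writers summed to 99.6 and 139 and the erasers to 209 and 232, and for H3K36 the writers summed to 63.4 and 109 and the erasers to 139 and 161.

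**Figure D4:**
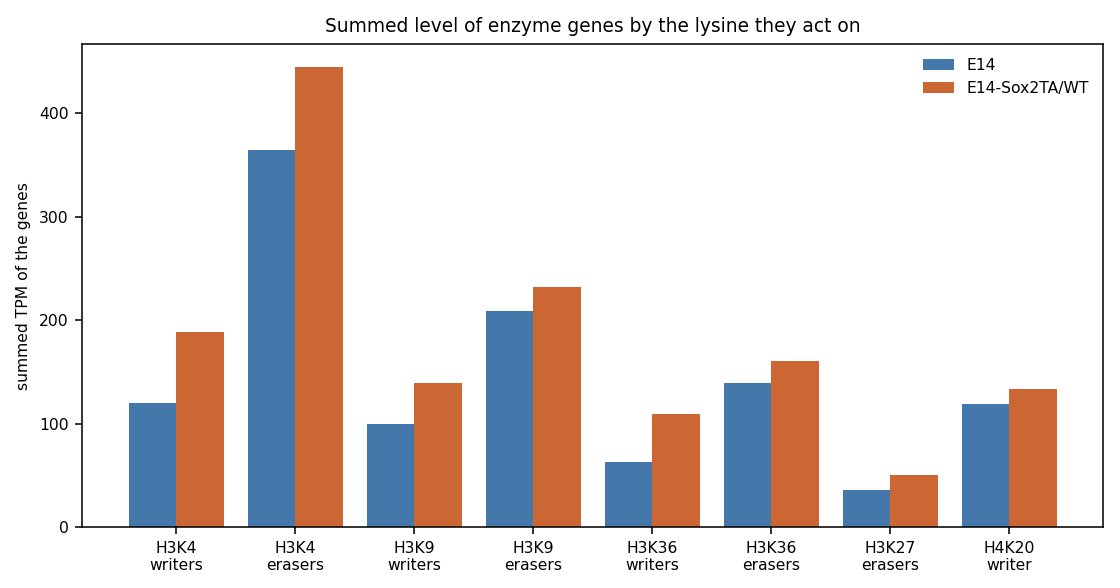
Summed TPM of the member genes that act on each histone lysine in E14 and E14-Sox2TA/WT cells; genes that act on 2 lysines are counted under both, and no H3K27 writer or H4K20 eraser belongs to the members. Every sum of these members is higher in E14-Sox2TA/WT cells, with the widest relative gaps for the writers of H3K36 (63.4 and 109) and H3K4 (121 and 189). The length trend is not removed from the sums. With it removed, the median log2 ratio past the filter was 0.26 for the H3K36 writers (0.81 before) and 0.15 for the H3K4 writers (0.70 before). Enzymes outside the rule are not in the bars. The H4K20 bar is Kmt5a alone, without Suv420h2 (135 and 74.0) and Suv420h1 (15.3 and 18.8).

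A further 37 genes of histone lysine methylation that the symbol rule does not match gave a median log2 ratio of 0.24 over the 29 past the filter, of which 20 were higher and 9 lower, beside 0.08 and 5214 of 9094 for all genes. With the length trend removed the median was 0.05, with 18 higher and 11 lower. More than 2-fold higher past the filter were Jmjd1c, a relative of Kdm3a and Kdm3b (TPM 41.3 and 104, 11167 and 18934 reads, log2 ratio 1.34, 1.31 to 1.37), and Jarid2, a Polycomb cofactor of the Jumonji group without demethylase activity (107 and 238, 20073 and 30016 reads, 1.15, 1.13 to 1.18). Both were still more than 1.5-fold higher with the length trend removed (0.78 and 0.76). Mecom, the Prdm3 gene, went from 9 to 47 reads under the filter (3.13, 2.09 to 4.35). Zmynd11, a reader of methylated H3K36, followed at 0.85. The lowest were Suv420h2, which trimethylates H4K20 (135 and 74.0, 9528 and 3480 reads, -0.87, -0.93 to -0.82), Ezh1 (33.7 and 22.9, -0.56) and Rbbp5, a shared subunit of the H3K4 writer complexes (71.0 and 57.0, -0.32). Its partners Wdr5 (0.02), Ash2l (0.10) and Dpy30 (-0.10) were near level, and the signs of these 3 turned with the length trend removed. Of the 16 cofactor genes among the 37 that passed the filter, 11 were higher and 5 lower. Their median log2 ratio was 0.12, or 0.03 with the length trend removed.

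Promoter sequences from RefSeq (GRCm38.p6) were searched for the Sox core motif CATTGT on either strand (ACAATG on the other) in the 250 bases before the start. Of the 39 members past the filter, 27 had an entry, and 1 of them (3.70%) held the motif, against 5.40% of the 7297 genes past the filter with an entry and 9.33% of all 18245 genes with one. The sequences shown belong to the members of highest and lowest ratio among those with an entry within 1000 bases of the gene's outer start, Setd2 and Kdm4a, and Prdm10, whose window at a start inside the gene holds the motif, set in capitals. They lie at chr9:110532347-110532596 (Setd2, plus strand), chr4:118180044-118180293 (Kdm4a, minus strand) and chr9:31280299-31280548 (Prdm10, plus strand).
Setd2: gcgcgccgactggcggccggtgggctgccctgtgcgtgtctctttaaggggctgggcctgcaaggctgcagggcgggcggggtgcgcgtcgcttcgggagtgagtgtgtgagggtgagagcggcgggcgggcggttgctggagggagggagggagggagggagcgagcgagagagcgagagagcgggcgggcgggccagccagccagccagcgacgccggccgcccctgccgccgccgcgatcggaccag
Kdm4a: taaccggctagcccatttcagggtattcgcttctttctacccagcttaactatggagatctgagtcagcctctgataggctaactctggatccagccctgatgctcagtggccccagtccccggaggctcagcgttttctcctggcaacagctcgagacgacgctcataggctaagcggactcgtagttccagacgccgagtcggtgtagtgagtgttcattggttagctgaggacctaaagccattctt
Prdm10: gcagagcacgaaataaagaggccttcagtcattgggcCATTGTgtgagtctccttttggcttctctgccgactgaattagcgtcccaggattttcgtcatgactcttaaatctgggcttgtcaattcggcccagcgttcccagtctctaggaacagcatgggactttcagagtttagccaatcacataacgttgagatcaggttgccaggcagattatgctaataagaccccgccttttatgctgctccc
The Setd2 window is a CpG-rich promoter with 31 CG dinucleotides and 76% G and C, whereas that of Kdm4a has 12 and 53.6%. Across the members past the filter the median was 21 CG dinucleotides, and it was 17 across all genes past it.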

How the data were processed

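RNA-seq of 2 libraries, E14 and E14-Sox2TA/WT, was analysed from 1 gene table for mm10. The submitters' processing notes name bcl2fastq 2.20.0, Trimmomatic, HISAT2 2.1.0 and StringTie 2.1.3b. Deposited read counts are raw whole numbers. FPKM and TPM as deposited were scaled by the authors for transcript length and library size. The handling of strand and of reads shared between genes is not given in the sources used here.

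The study's filter (a TPM of 10 in either library) and its 2-fold threshold were used. The TPM ratio was taken without a pseudocount, a choice made here. The split at 5000 bases and the 1.5-fold counts without the length trend were added after the values had been seen. The 95% intervals are exact Clopper-Pearson intervals from the read counts. These intervals, like the floor of 3 reads, cover only counting error, since PCR copies are not independent molecules. Implied length is reads divided by FPKM and total reads. Trends were removed as medians in 20 bins. GC content came from GENCODE vM21 transcripts, which matched 39 of 39 members past the filter, and positions from RefSeq GRCm38.p6. Scaling factors came from edgeR 4.0.16 (TMM) and from medians of ratios. No model was fitted across genes. Intervals and trend removal were tested on simulated data.

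The members, roles and lists were chosen with earlier results of these data known. Full values were given for the 10 highest and 10 lowest members past the filter, the 3 most abundant writers and erasers, members past 2-fold at a TPM of at least 1, and Kdm5c, Kdm5d and Kdm6a, and shorter values for the others. Values of 1 member past the filter are not reported here or drawn for single genes, but it is included in counts, medians and sums.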

Additional observations from a re-analysis of the deposited data

How the results depend on the processing

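The count of members more than 2-fold higher (1, Setd1b) was 0 with FPKM, with the length trend removed, with GC and length trends removed, with a pseudocount of 1, with the filter at TPM 20, at 3-fold and with the interval wholly past 2-fold. With the filter at TPM 1 it was 2, and at 1.5-fold 14. The count more than 2-fold lower was 0 under every alternative tried. The median log2 ratio of writers (0.45) was 0.30 with FPKM, 0.36 when centred, 0.080 with the length trend removed, 0.11 with GC and length trends removed, 0.38 and 0.36 with filters at TPM 1 and 20, 0.64 without Prdm and Smyd, and 0.38 with the further enzymes added. That of erasers (0.28) was 0.14 with FPKM, 0.20 when centred, 0.047 with GC and length trends removed and 0.44 with the filter at TPM 20, and it reversed to -0.14 with the length trend removed. The difference of erasers minus writers (-0.17) was -0.062 with GC and length trends removed, -0.10 with the filter at TPM 1, -0.35 without Prdm and Smyd and -0.10 with the further enzymes added, and it reversed to 0.079 with the filter at TPM 20. The log2 change of the eraser to writer ratio of sums (-0.01) was -0.07 without Prdm and -0.04 without the most abundant writer and eraser. It was not computed with the further enzymes added, whose sums are given above. FPKM moves the log2 ratio of every member by the same amount, since TPM per FPKM was 1.94 in E14 and 2.15 in E14-Sox2TA/WT cells. Centring likewise subtracts 1 value, the median of all genes past the filter. The cause of the other shifts was not tested, beyond the fewer or other genes that a filter or list admits. The median of all genes past the filter was 0.08 with TPM and -0.06 with FPKM, a shift of over 0.1. No paired analysis was possible because each genotype had 1 library, and for the same reason no library could be left out.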
